A study of Mus musculus with 8 samples.

Results

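Cluster 1 of the B cells of transplanted mouse lungs was made up of 206 cells, chosen as the cells that the deposited table of cells typed as B cells and put in B cell subcluster 1. They were 206 of 20778 cells in all and of 2263 B cells with a subcluster. A further 4 cells of subcluster 1 were typed as plasma cells (PCs) and were left out. The comparison cells were the 1893 B cells of subcluster 0 and the 172 PCs of the same mice. Droplet RNA sequencing from the 3′ end of transcripts was run on 8 left lung grafts, each 1 mouse and 1 library, 1 month after orthotopic transplantation. All mice were male, every recipient was a B6 (C57BL/6) mouse, and no immunosuppression was given. In the control group, B6→B6, 5 mice received a B6 lung. In the rejection group, HLA→B6, 3 mice received the lung of an HLA mouse, which carries Tg(HLA-A2.1)1Enge/J on the C57BL/6 background, so that the graft carried a human HLA-A2.1 transgene that the recipient lacked. The ages of the mice and the share of donor cells that a graft still held are not given in the sources used here.

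B-1 cells are an innate-like B cell lineage, best known from the peritoneal and pleural cavities, that self-renews and makes much of the natural IgM. Follicular B-2 cells, in contrast, recirculate through lymphoid follicles and depend on T cell help for most class-switched responses. BHLHE41 is a basic helix-loop-helix repressor needed for normal B-1a cell numbers and self-renewal. ZBTB32 is a zinc finger repressor known for restraining memory B cell recall responses, CD43 (gene Spn) is a surface sialoglycoprotein used to sort B-1 cells, and annexin A2 (Anxa2) binds membrane phospholipids in the presence of calcium.

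The repressor that gives these cells their name binds E-box sequences, so the promoter of its own gene is shown, beside that of Ass1, an arginine synthesis gene that was among the 15 leading genes of cluster 1. The windows are RefSeq promoters on GRCm38.p6, at chr6:145865371-145865670 on the minus strand for Bhlhe41 and at chr2:31470020-31470319 on the plus strand for Ass1, read 5′ to 3′ along each gene. Capitals mark the E-box CACGTG, which is its own reverse complement.
Bhlhe41: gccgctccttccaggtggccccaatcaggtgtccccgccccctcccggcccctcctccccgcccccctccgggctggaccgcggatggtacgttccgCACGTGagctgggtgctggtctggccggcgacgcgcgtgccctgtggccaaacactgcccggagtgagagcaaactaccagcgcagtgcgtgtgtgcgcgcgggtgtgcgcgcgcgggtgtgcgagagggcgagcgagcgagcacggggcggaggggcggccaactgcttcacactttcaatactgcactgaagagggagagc
Ass1: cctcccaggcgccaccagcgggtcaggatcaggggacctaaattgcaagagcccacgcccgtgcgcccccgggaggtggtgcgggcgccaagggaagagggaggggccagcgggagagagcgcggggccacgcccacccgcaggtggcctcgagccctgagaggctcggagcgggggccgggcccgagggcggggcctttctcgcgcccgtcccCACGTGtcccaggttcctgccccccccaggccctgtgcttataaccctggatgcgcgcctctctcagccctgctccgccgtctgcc
The E-box began 153 bases upstream of the RefSeq start site in the Bhlhe41 window and 36 bases upstream of that in the Ass1 window. Each window holds 250 bases before its start site. GENCODE vM21 puts the 5′ end of each gene farther upstream, at 145865558 for Bhlhe41 and 31470207 for Ass1. The distances do not hold for those ends. Of the 15 leading genes, 12 had a promoter entry, with 15 windows between them, and 2 of the 15 windows held the E-box, against 7.15% of all 32851 promoters. A match to 6 letters is a description of these windows and does not show a binding site. The whole Bhlhe41 gene lies at chr6:145858243-145865558 on the minus strand (GENCODE vM21, GRCm38).

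The cells were unevenly spread over the mice. Cluster 1 held 5, 20, 21, 8 and 6 cells in B6→B6 mice 1 to 5, and 71, 70 and 5 cells in HLA→B6 mice 1 to 3. Thus 141 of the 206 cells came from 2 HLA→B6 mice, and HLA→B6 mouse 3 held as few as the smallest control. Levels are given for all 8 mice, whereas tests and ratios used the 4 mice with at least 10 cells, B6→B6 mice 2 and 3 and HLA→B6 mice 1 and 2. The cells were deeper than those of cluster 0, with a median of 2948.5 UMIs (unique molecular identifiers, 1 per captured transcript; range 1093 to 18524) and 1184 genes, against 1586 UMIs and 746 genes in cluster 0 and 7942.5 UMIs in PCs. When every cell was reduced to 1000 UMIs the gap in genes was gone, with mouse means of 494 to 550 genes per cell in cluster 1 and 513 to 549 in cluster 0. The sums per mouse ran from 18458 to 250364 UMIs. Cell barcodes recurred between libraries more often than elsewhere among B6→B6 mice 1 to 3 and HLA→B6 mouse 2, and 5 cluster 1 cells carried such a shared barcode, so results that rest on these libraries are also given without those cells. Scrublet, a doublet caller, marked 12 cluster 1 cells, of which 8 were in HLA→B6 mouse 1, 3 in B6→B6 mouse 4 and 1 in B6→B6 mouse 3. They were kept in the main values.

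The 4 markers were checked first, as sums of UMIs over the cluster 1 cells of a mouse, in CPM (a gene's UMIs brought to a common library total, with TMM normalization). Bhlhe41 stood at 291, 177, 155, 301 and 90.2 CPM in B6→B6 mice 1 to 5 and at 260, 187 and 190 CPM in HLA→B6 mice 1 to 3. Every one of these exceeded the highest cluster 0 value of 13.8 CPM, and the 2 transplant groups overlapped. PCs, which could be measured in HLA→B6 mice 1 and 2 only, held 218 and 170 CPM of Bhlhe41. That is near cluster 1 of the same mice only with TMM scaling, which allows for the Ig RNA of PCs. Unscaled, PCs held 67.0 and 66.6 CPM against 272 and 196 CPM in cluster 1.

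Zbtb32 was at 32.3, 77.3, 129, 50.2 and 361 CPM in the 5 B6→B6 mice and at 98.9, 122 and 0 CPM in the 3 HLA→B6 mice. Its cluster 0 values reached 7.87 CPM at most, and PCs held 6.04 and 0 CPM, far below cluster 1 of the same mice on either scale. Anxa2 was at 194, 121, 116, 151 and 225 CPM in B6→B6 and at 371, 164 and 253 CPM in HLA→B6, against 4.84 to 68.5 CPM in cluster 0 and 15.1 and 10.6 CPM in PCs. Spn was the weakest of the 4, with 0, 55.2, 51.7, 0 and 22.5 CPM in B6→B6 and 86.6, 41.9 and 31.7 CPM in HLA→B6. It was above cluster 0 of the same mouse in 6 of 8 mice, but in B6→B6 mouse 5 and HLA→B6 mouse 3 from 1 UMI each. The 32.3 CPM of Zbtb32 in B6→B6 mouse 1 was also 1 UMI. In mice with under 10 cluster 1 cells, 1 UMI came to 22.5 to 32.3 CPM, so a level of 0 there says little. PCs had 60.4 and 31.9 CPM of Spn on the TMM scale, where the scaling factors were 0.308 and 0.392 in PCs and 1.05 in cluster 1. As for Bhlhe41, the unscaled PC levels were therefore lower, while cluster 1 of these mice stood at 90.8 and 43.9 CPM unscaled. The clusters were drawn from the same counts, so none of these differences between clusters is a test.

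**Figure D1:**
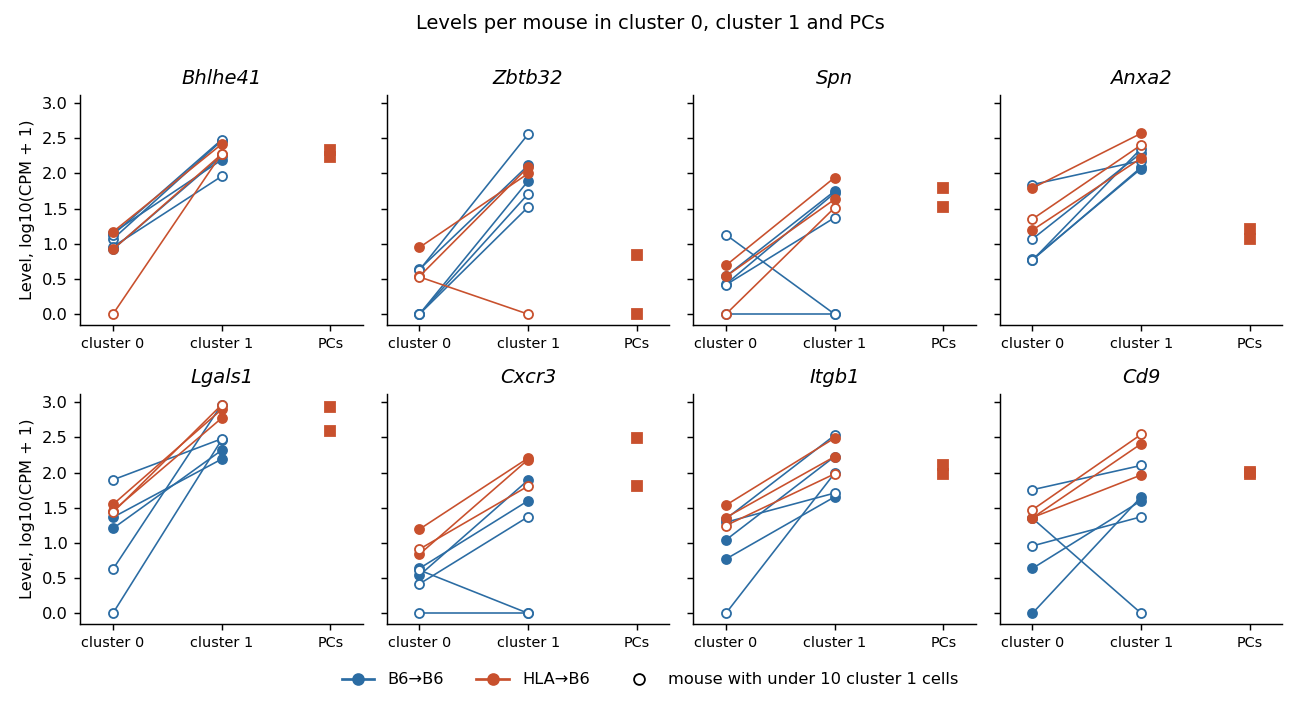
Level of the 4 markers and of Lgals1, Cxcr3, Itgb1 and Cd9 as log10(CPM + 1) of summed UMIs, with lines joining cluster 0 and cluster 1 of the same mouse, squares for PCs of HLA→B6 mice 1 and 2, and open circles for mice with under 10 cluster 1 cells. Bhlhe41 rises from 13.8 CPM or less in cluster 0 to between 90.2 and 301 CPM in cluster 1 in all 8 mice, and on this TMM scale PCs lie beside cluster 1 for Bhlhe41 and near 0 for Zbtb32.

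Cell by cell, the markers were seen in a minority. A Bhlhe41 UMI was found in 73 of the 206 cells (35.4%), against 1.43% of cluster 0, 26.2% of PCs and 0.0197% of T cells, where it is not expected (median depths 2948.5, 1586, 7942.5 and 1648 UMIs). At 1000 UMIs the expected share was 17.2% in cluster 1 and 0.853% in cluster 0. Zbtb32 was found in 25.7% of cluster 1 cells, in 0.475% of cluster 0 and in 1.26% of T cells. For Anxa2 the shares were 34.5% and 3.75%, and for Spn 14.1% and 0.528%. T cells use both of these genes, with 22.1% and 18.3% of cells, so they give no background for them.

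Counting the markers in each cell, 65 cells of cluster 1 had none of the 4, 78 had 1, 45 had 2, 14 had 3 and 4 had all 4. The median depth rose along this series from 2499 UMIs in cells with none to 7007 UMIs in cells with all 4, so the count of markers moved with depth. In cluster 0, 1780 of 1893 cells had none, 109 had 1 and 4 had 2. Among PCs, 112 of 172 had none. At least 1 marker was thus counted in 141 cells.

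Beyond those 4, genes of the B-1 lineage were looked at as a list of 14, including the 4. Against cluster 0, 8 of the 14 passed the filter on low counts and all 8 of these were counted as higher, with a median log2 ratio of 2.80 where the median of all 3728 genes was -0.06. A gene was counted when its mean log2 ratio over the 4 mice was at least 1 and its sign was the same in each. Over all genes 2.04% were counted as higher and 3.3% as lower, 76 and 123 genes, or 69 and 98 without the cells that shared a barcode. The list was drawn up with earlier results of these data known and is no independent evidence. In cluster 0, Spn, Zbtb32 and Bhlhe41 averaged 2.63, 3.41 and 10.5 CPM over the 4 mice, so they passed the filter through cluster 1. Genes low in both clusters fell out, so 8 of 8 is a description and not support. The further genes counted were Cd9 (log2 ratio 2.59), a tetraspanin of B-1 and marginal zone cells, Fcrl5 (2.73), an Fc receptor-like inhibitor of innate-like B cells, Zbtb20 (1.77), a zinc finger factor of B-1 and plasma cells, and Plac8 (1.43). Cd9 was highest in 16 cells that carried endothelial RNA, at 889 CPM unscaled against 105 CPM in the other 190. Without those 16 cells it did not pass the filter.

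The genes of the list that fell below the filter were Cd5, Ctla4, Itgam, Plscr1, Il5ra and Arid3a. Cd5, which defines the B-1a branch on the cell surface, was seen in 4 cells (1.94%), and Itgam, which encodes CD11b, in 5 cells (2.43%), all of HLA→B6 mouse 1. The T cells of the same grafts, which carry CD5, showed a Cd5 UMI in 18.5% of cells at a lower depth. Cd5 RNA was thus close to the limit of detection in cluster 1, and the cells could not be placed in the B-1a or the B-1b branch from it. Variable genes typical of antibodies to phosphatidylcholine, a classical B-1 specificity, were looked up too. Ighv11-2 and Igkv14-126 were at 0 UMIs in all 206 cells, where 25 of the 87 variable genes in the table had a UMI, 46 UMIs in all.

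Genes of memory and atypical B cells were looked at next. Of 12, 5 passed the filter and 4 of these were counted as higher, at a median log2 ratio of 1.88. These were Cxcr3 (3.08), the receptor for interferon-induced chemokines, Itgb1 (2.83), the beta-1 integrin chain, Fas (1.88), the death receptor, and Zeb2 (1.46), a factor of age-associated B cells. Cd38 was at 0.19. Cxcr3 and Itgb1 averaged 6.59 and 17.6 CPM in cluster 0, so they too passed the filter through cluster 1, and this count is a description. Below the filter, Cd80 UMIs occurred in 10.2% of cluster 1 and 0.211% of cluster 0, Nt5e (CD73) in 5.34% and 0.158%, and Pdcd1lg2 (PD-L2) in 10.7% and 2.01%. PD-L2 is used both as a memory and as a B-1 marker. The other members below the filter were rare. Tbx21 was found in 3, 3 and 1 cells of HLA→B6 mice 1 to 3 and in 0 cells of the controls. Itgax was found in 2 cells of each of HLA→B6 mice 1 and 2 only. Hopx was found in 1 cell of each of B6→B6 mouse 2 and HLA→B6 mice 1 and 2, and Sox5 in at most 4 cells of any mouse. The germinal center list had 0 of 7 genes past the filter.

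The single genes that stood highest over cluster 0 were led by Igha, the constant chain of IgA, with a mean log2 ratio of 3.75 (SD 0.98, n = 4 mice), followed by Zbtb32 at 3.62 and Bhlhe41 at 3.61 (SD 0.34). In the controls among these mice, Igha was 3 UMIs in 1 cell of B6→B6 mouse 2 and 18 UMIs in 2 cells of B6→B6 mouse 3. It averaged 11.2 CPM in cluster 0, so Igha too passed the filter through cluster 1. Lgals1, which encodes galectin-1, stood at 3.59 and Anxa2 at 3.14. In CPM, Lgals1 was at 291, 155, 207, 301 and 924 in B6→B6 and at 594, 789 and 918 in HLA→B6, while cluster 0 held 0 to 77.9. Cxcr3 was at 0, 77.3, 38.8, 0 and 22.5 CPM in B6→B6 and at 153, 160 and 63.3 CPM in HLA→B6, where cluster 0 did not exceed 14.7 CPM. Itgb1 was above cluster 0 of the same mouse in all 8 mice, at 44.1 to 338 CPM against 0 to 33.5 CPM. Further genes among the 15 were Ms4a6c (3.03), Ccnd2 (2.40), the D-type cyclin of B cell activation and of B-1 self-renewal, Apoe (2.12), Ass1 (2.08) and Vim (2.05), which encodes vimentin.

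Lower than in cluster 0 were genes of resting follicular cells. Fcer2a, which encodes the low-affinity IgE receptor CD23, was at 22.5 to 77.6 CPM in B6→B6 and at 12.4, 11.4 and 0 CPM in HLA→B6, against 192 to 321 CPM in cluster 0, with a mean log2 ratio of -2.76. Cr2, complement receptor 2, was at -2.79, Satb1 at -2.80 and Sesn1, a p53 and FOXO target, at -3.12. Of 10 follicular genes all passed the filter and 6 were counted as lower, with a median of -1.57. Beside Fcer2a and Cr2 these included Ighd (-2.05), Cd55 (-1.70), which encodes a complement inhibitor, and Ccr7 (-1.44), a chemokine receptor used for entry into lymph nodes. Of 6 marginal zone genes 4 passed the filter, of which 2 were counted as lower and 0 as higher.

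**Figure D2:**
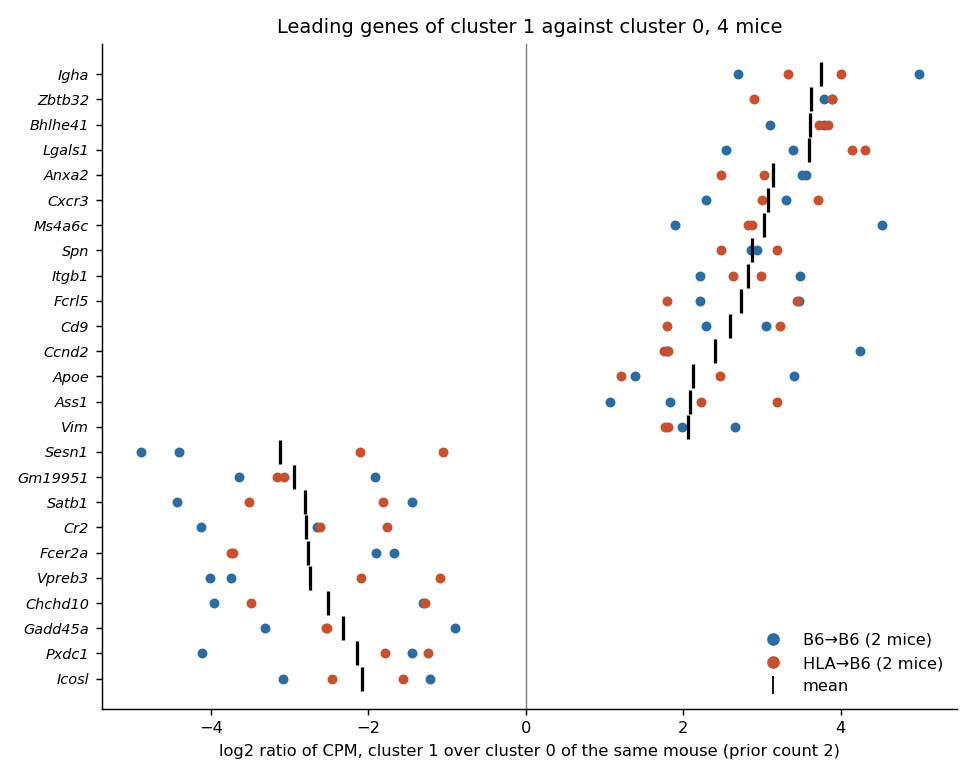
Log2 ratio of cluster 1 to cluster 0 within each of the 4 mice with at least 10 cells of each (points, coloured by group) and their mean (bars), for the 15 leading higher and 10 leading lower genes. The highest mean is Igha at 3.75 and the lowest Sesn1 at -3.12, and every mouse has the same sign for each gene shown.

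Pan-B-cell genes were close to cluster 0. Of 9 (among them Ms4a1, Cd79a and Pax5), 0 were counted as higher and 1, Ebf1 (-1.16), as lower. All 10 class II antigen presentation genes passed the filter and 0 were counted in either direction, at a median of -0.38. Of 13 genes of secretion through the endoplasmic reticulum 0 were counted, at a median of 0.49. Mzb1, a chaperone for antibody assembly that is abundant in B-1, marginal zone and plasma cells, was at 402 to 1094 CPM against 315 to 462 CPM in cluster 0, a log2 ratio of 1.12. Xbp1, the factor that drives antibody secretion, was at 0.75 and did not reach the size asked for.

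Genes of the membrane skeleton and of adhesion were looked at in further lists, also drawn up with earlier results known. In the annexin, S100 and cytoskeleton list, 11 of 15 genes passed the filter and 6 were counted as higher and 0 as lower, at a median of 1.15. Over all genes 2.04% were counted as higher. Besides Lgals1, Anxa2 and Vim these 6 were Ahnak (1.89), Crip1 (1.47) and S100a10 (1.15), the partner of annexin A2. Lgals1 and Anxa2 averaged 24.7 and 21.4 CPM in cluster 0, so they passed the filter through cluster 1, and the count is a description. Anxa2 was also on the B-1 list, and Cxcr3 and Itgb1 below were also on the memory list. Among 13 homing genes past the filter, 3 were higher, with Cd44 (1.71) beside Cxcr3 and Itgb1, and 2 were lower, Ccr7 among them. Of 15 cell cycle genes 3 passed the filter and 0 were counted in either direction.

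Against PCs the rule asked for the same sign in 2 mice, not 4, and over another set of genes. The shares below can therefore not be set beside those against cluster 0. In HLA→B6 mice 1 and 2, the only ones with at least 10 PCs, 17% of 2569 genes were counted as higher in cluster 1 and 15% as lower, 436 and 385 genes, or 397 and 364 without the cells that shared a barcode. Cluster 1 was higher in Cd72 (log2 ratio 4.64) and Cd22 (4.18), inhibitory coreceptors of B cells, in Ebf1 (4.46), the B lineage factor, in Ms4a1 (3.99), which encodes CD20, and in H2-DMb2 (4.16) and H2-Oa (3.93), which edit the peptides of class II molecules. Apoe was at 4.85 with a wide spread between the mice (SD 2.26). Zbtb32 (3.42) and Anxa2 (3.57) also stood higher, whereas Bhlhe41 was at 0.15 on the TMM scale.

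The antibody secretion program was lower in cluster 1 than in PCs throughout. All 13 genes of secretion through the endoplasmic reticulum were lower, at a median log2 ratio of -3.79, as were the 7 plasma cell genes past the filter, at -5.05. Among them were Jchain (-7.99), which joins IgM and IgA into polymers, Sdc1 (-5.05), which encodes the plasma cell surface marker CD138, and Xbp1 (-4.39). Mzb1 was at -2.84. These ratios, and the counts of genes against PCs above, are on the TMM scale, which raises PC levels. Unscaled, the 13 secretion genes summed to 3149 and 2856 CPM in cluster 1 of HLA→B6 mice 1 and 2, against 12714 and 11805 CPM in PCs. Ig genes took 1.9% to 4.4% of the UMIs of cluster 1, close to the 2.3% to 2.9% of cluster 0, and 62.7% to 79.0% of those of PCs. The 4 cells of subcluster 1 that were typed as PCs held 0, 0, 23 and 60 Jchain UMIs.

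Each cell was given a heavy chain class where at least 3 UMIs of heavy chain constant genes were counted. Of the 206 cells 193 could be classed. IgM was the class of 154 cells and IgD of 3. The other 36, or 18.7% (95% Wilson interval 13.8% to 24.7%, counting error only), were of a switched class, with 12 Igha, 10 Ighg2b, 6 Ighg2c, 5 Ighg3 and 3 Ighg1 cells. In cluster 0, 8 of 1695 classed cells were switched (0.472%), and in PCs 114 of 172 (66.3%), of which 58 were Ighg2c. Pooled over mice, cluster 1 thus stood between the 2 other populations in the share of switched cells. HLA→B6 mouse 1 held 121 of the 172 PCs and 89 of the 114 switched PCs. The order did not hold in B6→B6 mouse 4 and HLA→B6 mouse 3, whose 1 and 2 PCs were all of the IgM class. The lead of Igha rested on HLA→B6 mouse 1, which held 7 of the 12 Igha cells, whereas HLA→B6 mouse 2 had 4 Ighg2b, 3 Ighg2c and 2 Igha cells.

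Heavy chain RNA was also counted in T cells, which do not make it. Of 5071 T cells 259 reached 3 heavy chain UMIs and 43 of these were classed as switched, 36 as Ighg2c, with 32 of the Ighg2c cells in HLA→B6 mouse 1. Ighg2c was found in 14.5% of the T cells of that mouse and in 28.2% of its cluster 1 cells. Igha, by contrast, had a UMI in 22.3% of the cells of cluster 1 and 0.276% of T cells. Ighg2b had one in 31 of the 206 cells and in 4 of the 5071 T cells. Igha and Ighg2b were thus nearly absent from T cells. The part that RNA from other cells had in the Ighg2c class was not tested.

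**Figure D3:**
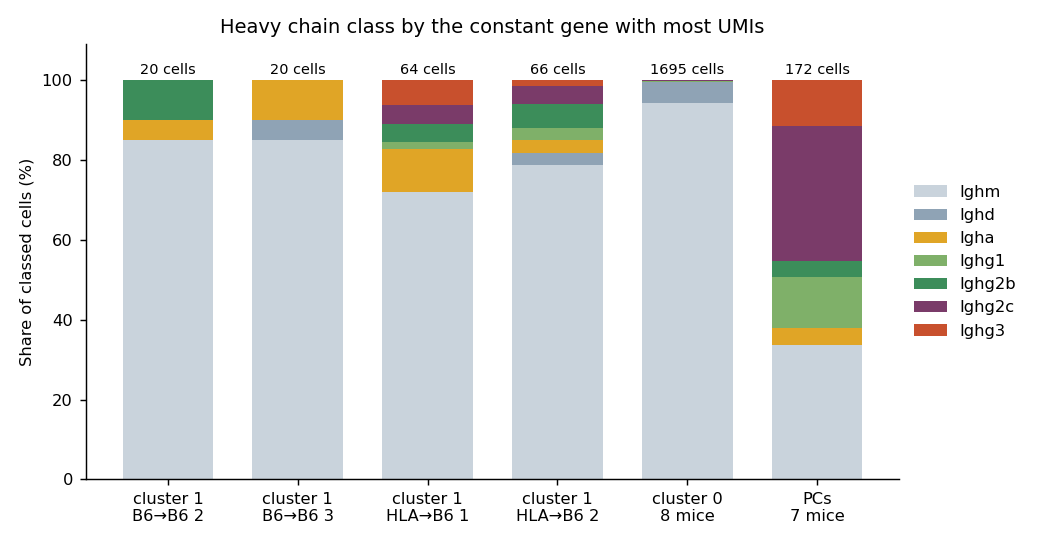
Share of classed cells in each heavy chain class (percent), as stacked bars, for cluster 1 of the 4 mice with at least 10 cells and for cluster 0 and PCs pooled over mice, with the number of classed cells above each bar. Switched classes take 15%, 10%, 28.1% and 18.2% of the cluster 1 bars, against 0.472% of cluster 0 and 66.3% of PCs.

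The first question across the transplant groups was whether cluster 1 took a larger part of the B cells in rejecting grafts. Its share of B cells was 8.62%, 8.44%, 5.74%, 3.46% and 1.68% in B6→B6 mice 1 to 5 and 17.7%, 21.8% and 1.72% in HLA→B6 mice 1 to 3. HLA→B6 mice 1 and 2 lay above all controls, and HLA→B6 mouse 3 lay at the lower end of them. The means were 5.59% ± 3.05 (SD, n = 5) and 13.7% ± 10.6 (SD, n = 3), a difference of 8.16 percentage points that did not pass an exact two-sided permutation test over mice (p = 0.179, smallest possible 0.0357, adjusted over 3 shares 0.393).

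As a share of all cells, cluster 1 was at 0.528%, 1.48%, 0.863%, 0.195% and 0.691% in B6→B6 and at 1.08%, 2.13% and 0.401% in HLA→B6. The groups overlapped, with means of 0.752% ± 0.477 and 1.20% ± 0.869 and p = 0.393 in the same exact permutation test. Without HLA→B6 mouse 2 this difference was -0.00862 percentage points. Without the cells that shared a barcode the difference in the share of B cells was 8.59 percentage points (exact permutation p = 0.179). With mice permuted within the libraries that shared barcodes and within the others, it was 10.2 points (exact permutation p = 0.167). The smallest p that this permutation test could give was 0.0833, above the threshold, so it could not decide the question.

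**Figure D4:**
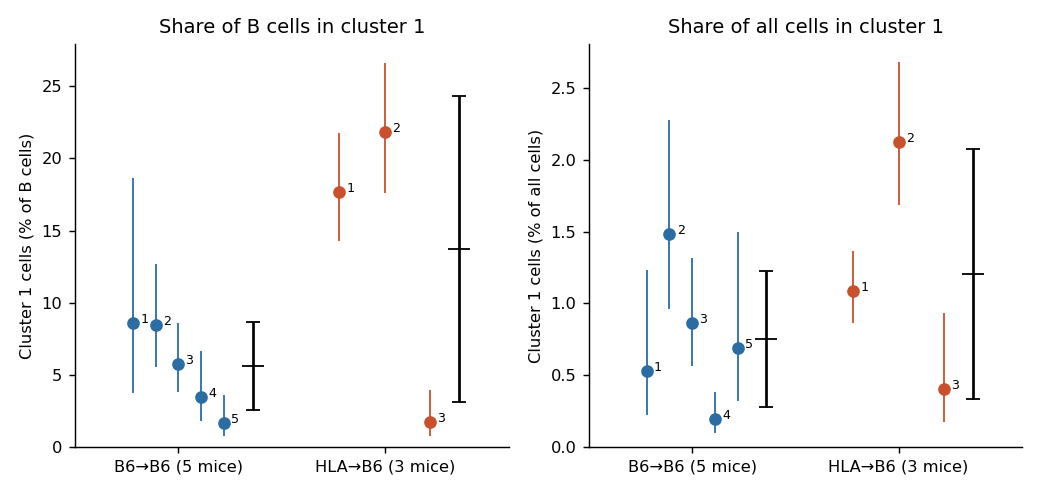
Share of cluster 1 among B cells and among all cells (percent) in each mouse, with 95% Wilson intervals (thin lines, counting error only) and the group mean with its SD (black). HLA→B6 mice 1 and 2 reach 17.7% and 21.8% of B cells and HLA→B6 mouse 3 stays at 1.72%, inside the control range of 1.68% to 8.62%.

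Switched cells made up 15% and 10% of the classed cells of B6→B6 mice 2 and 3 and 28.1% and 18.2% of those of HLA→B6 mice 1 and 2. The 2 groups did not overlap, but with 2 mice in each the exact permutation test could not go below its result of p = 0.333. When mice with at least 5 classed cells were allowed, the shares were 0%, 15%, 10%, 0% and 0% in B6→B6 and 28.1%, 18.2% and 20% in HLA→B6, with an unadjusted exact permutation p of 0.0357, the smallest possible. The 3 controls at 0% had 5 to 7 classed cells each.

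Expression within cluster 1 was then compared between the groups with edgeR over the 4 mice with at least 10 cells. Of 2152 genes, 2 passed as higher in HLA→B6, Jchain and Lgals1, and 0 as lower (0.0929% called in either direction). Jchain had 0 UMIs in both tested controls and so entered the test through the rejecting mice alone, which leaves Lgals1 as the 1 call with counts in both groups. Unadjusted p-values were under 0.05 for 210 genes (9.76%), and for 877 genes (40.8%) the 2 groups did not overlap. The other counts under changed settings ran from 0, when the 4 cells typed as PCs were put back, to 17, when the 5 cells with a shared barcode were left out, and both genes were among the 17. Leaving out 1 mouse, which leaves an arm of 1 whose spread is assumed to be that of the other arm, gave 21 calls without B6→B6 mouse 2, 89 without B6→B6 mouse 3, 23 without HLA→B6 mouse 1 and 25 without HLA→B6 mouse 2.

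Jchain was not found among the 151635 UMIs of cluster 1 in B6→B6 mice 2 and 3. In HLA→B6 mice 1 and 2 it reached 122 and 71 UMIs, or 528 and 284 CPM without TMM scaling. Set against 3 counts over the control group (19.8 CPM), the pooled 401 CPM of the rejecting mice was at least 20.3-fold higher. Since the gene passed the filter on low counts through the group where it was high, its edgeR adjusted p of 0.0150 (0.0696 with the 4 cells typed as PCs) is given as a description and not as support. Among the other mice, B6→B6 mouse 1 had 2 UMIs in 1 cell and the rest had 0. The Jchain gene lies at chr5:88519809-88527891 on the minus strand.

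A few cells held that RNA. Only 15 of the 206 cells had a Jchain UMI, 10 of them in HLA→B6 mouse 1, 4 in HLA→B6 mouse 2 and 1 in B6→B6 mouse 1, and 7 had at least 10 UMIs, where the median PC had 196. The 2 cells with most held 65 and 45 of the 195 UMIs, and without them the level was at least 9.03-fold higher pooled, at least 12.9-fold in HLA→B6 mouse 1 and at least 5.43-fold in HLA→B6 mouse 2. The bound therefore rested in large part on HLA→B6 mouse 1 and on those 2 cells. Of the 15 cells 8 were of a switched class. In the same 2 mice Jchain was at 19.2 and 21.1 CPM in cluster 0 and at 60.7 and 3.82 CPM in T cells, all below cluster 1 of the same mouse.

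Lgals1 was at 155 and 207 CPM in B6→B6 mice 2 and 3 and at 594 and 789 CPM in HLA→B6 mice 1 and 2, a log2 fold change of 1.89 (SE 0.30, edgeR adjusted p = 0.0452, higher in 2 of 2 mice). The mice with fewer cells did not keep to this order, since B6→B6 mouse 5 was at 924 CPM and HLA→B6 mouse 3 at 918 CPM. Over the 8 mice with at least 5 cells the log2 fold change was 1.09 with an adjusted p of 0.584, and over 17 alternatives the adjusted p ran from 2.85e-06 to 0.584, 13 of them under 0.05. Lgals1 lies at chr15:78926725-78930465 on the plus strand.

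The genes with the next smallest p did not pass. Apoe, a lipid carrier that B cells and macrophages make, was at 784 and 1823 CPM in B6→B6 mice 2 and 3 and at 4518 and 4965 CPM in HLA→B6 mice 1 and 2 (log2 fold change 1.82, SE 0.31, edgeR adjusted p = 0.0622). HLA→B6 mouse 3 was at 1425 CPM, inside the control range of 0 to 1823. In T cells of the grafts Apoe did not exceed 50.9 CPM without scaling, far below cluster 1 of HLA→B6 mice 1 and 2. Mcl1, a survival factor of the BCL2 family, had a log2 fold change of -1.33 (SE 0.27) and Klf2, a factor of B cell quiescence and homing, of -1.29 (SE 0.26), both at an adjusted p of 0.142.

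Of the IgG genes, Ighg2b was at 0, 110, 0, 0 and 0 CPM in B6→B6 and at 367, 339 and 348 CPM in HLA→B6, with every rejecting mouse above every control. In the main comparison of 4 mice it did not pass (log2 fold change 2.52, edgeR adjusted p = 0.142). Over the 8 mice with at least 5 cells it was the 1 gene of 720 that did (0.139% called), at a fitted log2 fold change of 3.31 (SE 0.58, edgeR adjusted p = 0.0181). It was at 0 in 4 of the 5 controls, so it passed the filter through the rejecting mice, and it was named after its values were seen; this p is a description and not support. It was found in 9 of 71, 18 of 70 and 2 of 5 cells of the HLA→B6 mice, and T cells held at most 2.12 CPM. Ighg1, Ighg2c and Ighg3 were at 0 CPM in B6→B6 mice 2 and 3 and at 1043, 1014 and 833 CPM in HLA→B6 mouse 1, where 253 Ighg1 UMIs were in 1 cell. In HLA→B6 mouse 2 they were far lower, at 171, 103 and 76.2 CPM, and HLA→B6 mouse 3 held 0, 1 and 2 UMIs.

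**Figure D5:**
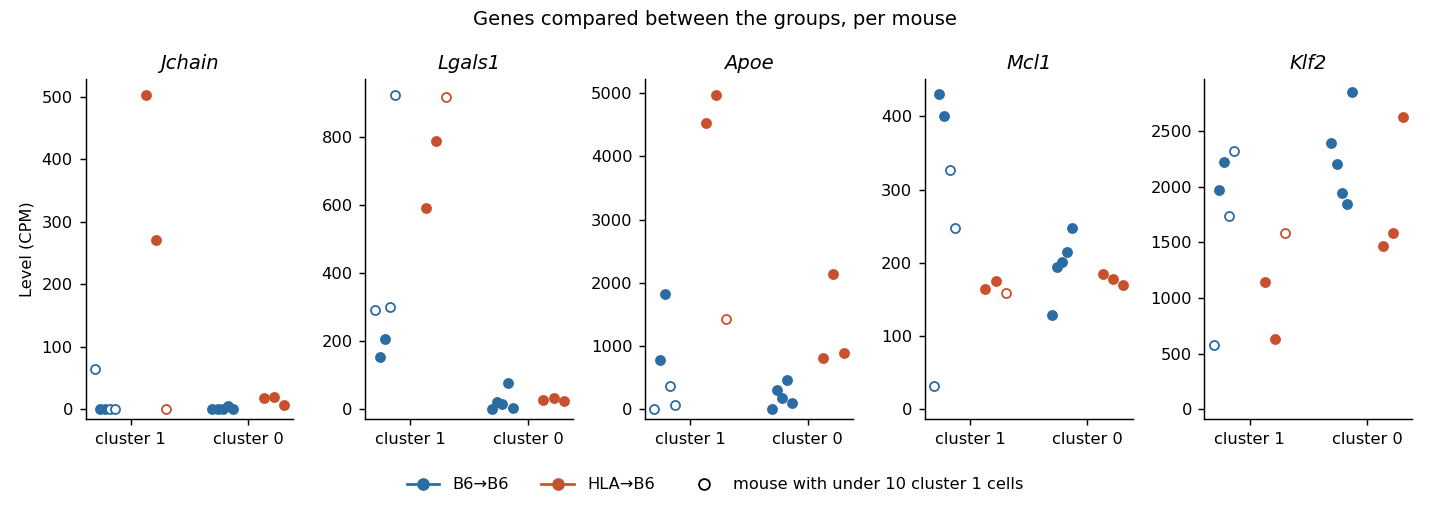
Level (CPM of summed UMIs, TMM-scaled) in cluster 1 and cluster 0 of the 5 genes with the smallest p between HLA→B6 and B6→B6, with 1 point per mouse and open circles for mice with under 10 cluster 1 cells. Lgals1 in cluster 1 is at 155 and 207 CPM in the 2 tested controls and at 594 and 789 CPM in the 2 tested rejecting mice, while B6→B6 mouse 5, not tested, is at 924 CPM.

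None of the 4 markers passed this test between the groups, and Spn was below the filter. Bhlhe41 had a log2 fold change of 0.37 (SE 0.32), Zbtb32 of 0.08 (SE 0.41) and Anxa2 of 1.11 (SE 0.45), with edgeR adjusted p-values of 0.790, 0.973 and 0.446. Cxcr3 was at 1.34 (SE 0.43, adjusted p = 0.384) and Itgb1 at 1.16 (SE 0.51, adjusted p = 0.479). Among gene lists only Jchain and Lgals1 were called. The 8 follicular genes tested had a median log2 fold change of -1.17, the 9 immediate early and stress genes of -0.98 and the 5 interferon gamma response genes of 0.61, where the median of all genes was 0.00, and 0 genes of these lists passed.

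Whether rejection went with another change in cluster 1 than in cluster 0 was tested as an interaction over 4657 genes. None passed (0% called in edgeR), 274 were under 0.05 unadjusted (5.88%), and 1 passed in DESeq2 and 1 in edgeR without the cells that shared a barcode. The smallest p-values belonged to Igkc, the kappa constant chain (difference of log2 fold changes 0.94, SE 0.23), Rasgrp2 (-1.43, SE 0.37), Mcl1 (-1.21, SE 0.32), Ctsh (1.09, SE 0.30) and Fcer2a (-2.38, SE 0.66), each at an adjusted p of 0.771. The differences for Lgals1 (1.13), Klf2 (-0.88) and Apoe (-0.65) did not pass either.

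Inside cluster 1 the cells were not uniform. The 73 cells with a Bhlhe41 UMI were deeper than the 133 without (median 3547 against 2703 UMIs). In CPM without TMM scaling they held more Lgals1 (1006 against 379), Ass1 (396 against 186), Anxa2 (356 against 170) and Spn (89.0 against 36.3), less Fcer2a (6.60 against 49.9), and about as much Zbtb32 (139 against 113). Switched cells held 874 CPM of Jchain against 107 in IgM and IgD cells, 437 against 193 of Anxa2 and 261 against 82.0 of Cxcr3. Of the 36 switched cells 18 were from HLA→B6 mouse 1 and 12 from HLA→B6 mouse 2, so the mouse moved with the class, and 1 switched and 1 IgM cell held 65 and 45 of the Jchain UMIs. These subsets were chosen on the same counts and no test was made.

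S100a6, a calcium-binding protein gene, marked a group of 18 cells. They were 4 of 8 cells in B6→B6 mouse 4, 5 of 6 in B6→B6 mouse 5, 3 of 5 in HLA→B6 mouse 3, and 1, 4 and 1 in B6→B6 mouse 2 and HLA→B6 mice 1 and 2. S100a6 stood at 2711 and 3043 CPM in B6→B6 mice 4 and 5 and at 0 to 665 CPM elsewhere. Compared with the other cells, these 18 held more Vim (2965 against 775) and Lgals1 (1257 against 557), less Apoe (244 against 4007) and 0 Jchain UMIs, all in CPM without TMM scaling. A Zbtb32 UMI was found in 8 of the 18 and in 45 of the other 188. The mouse moved with these values, since 12 of the 18 cells came from B6→B6 mice 4 and 5 and HLA→B6 mouse 3, where Apoe was at 445, 76.8 and 2259 CPM in cluster 1 and Jchain at 0, against 4740 and 5204 CPM of Apoe in HLA→B6 mice 1 and 2. Cluster 0 of the same 3 libraries held S100a6 in 16, 2 and 9 cells, and in 0 cells of the other 5 libraries.

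RNA of other cell types was followed by marker lists. Over 8 T cell genes the summed level, unscaled, was 0 to 120 CPM per mouse, and over 9 macrophage and monocyte genes 36 to 191 CPM, with Csf1r and Mrc1 at 0 UMIs. Epithelial genes reached 772 CPM and red blood cell genes 297 CPM in B6→B6 mouse 4, where 6 of 8 cells held Scgb1a1, and 0 to 71.8 CPM and 0 CPM in the other mice. Endothelial genes reached 1930 CPM in B6→B6 mouse 4 and 839 CPM in HLA→B6 mouse 1. Of the 206 cells 16 held at least 3 UMIs of Cdh5, Cldn5, Ramp2 and Tmem100, 12 of them in HLA→B6 mouse 1, 3 in B6→B6 mouse 4 and 1 in B6→B6 mouse 3. These 16 cells had 0 UMIs of Bhlhe41, Zbtb32, Spn, Ass1 and Cxcr3, and Cldn5 at 3039 CPM. They held more Cd9 than the other 190 (889 against 105 CPM) and more Anxa2 (445 against 234), and Itgb1 at 247 against 212 CPM. Without these cells the mean log2 ratio of Anxa2 to cluster 0 was 3.10, against 3.14 with them, and Cd9 no longer passed the filter on low counts. Without them, 4 genes passed between the groups, Jchain and Lgals1 included.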

How the data were processed

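The deposited values are UMI counts per gene and cell, not normalized, which the authors obtained with Cell Ranger against mm10 (GRCm38). Their methods state a minimum of 200 UMIs per barcode, genes in at least 3 cells, and SoupX removal of free RNA; the sources used here do not say if SoupX had been applied to this table, in which a T cell can hold as few as 2 UMIs. Cell types and subclusters came from their Seurat and clustifyr labels. The members and gene lists were chosen with earlier results of these data known.

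Counts were summed per mouse and cluster, scaled by TMM, filtered with filterByExpr (minimum count 10) and, for the groups, tested with edgeR's quasi-likelihood test with Benjamini-Hochberg adjustment at 0.05 (Python 3.11.15, scipy 1.17.1, scanpy 1.11.5, R 4.3.3, edgeR 4.0.16, DESeq2 1.42.0). The mouse was the replicate. Ratios between clusters used a prior count of 2 and no test. Shares were compared over mice with exact permutation tests. Intervals cover counting error only, and 3 counts stood for a count of 0. A cell counted as endothelial RNA-bearing with at least 3 UMIs of 4 genes, an alternative added after seeing the data. Named genes were the 4 markers, fixed B cell and Ig genes, the 15 highest and 10 lowest ratios against cluster 0, the 8 highest and 8 lowest against PCs, genes past 0.05 or the 5 with the smallest p, and up to 6 members of each list. S100a6 was named after its values were seen, as were Ighg2b over 8 mice and genes of the marker checks. Scripts were tested on simulated data. Alternatives covered scaling, filters, cell minimum, doublets, shared barcodes and single mice. Some members of the lists are not reported here by name.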

Additional observations from a re-analysis of the deposited data

Results flagged for a closer look

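Of 22 sets of values over the 5 B6→B6 mice, 4 held a mouse far from the other 4. Chance gives about 1 in 20 for normally distributed values, which these sparse counts need not be. A gene at 0 in 4 controls is flagged by any count in the remaining control, as Jchain was. Lgals1 in cluster 1 was at 924 CPM in B6→B6 mouse 5, which had 6 cells, and the nearest other control was at 301 CPM. Jchain was at 64.7 CPM in B6→B6 mouse 1, from 2 UMIs, and at 0 in the other controls. Igha was at 233 CPM in B6→B6 mouse 3 and at most 33.1 CPM in the other controls. Ms4a6c was at 243 CPM in B6→B6 mouse 2, with the nearest control at 64.7 CPM. All 4 rest on a mouse with 21 cluster 1 cells or fewer.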

How the results depend on the processing

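Of 86 recomputed main values with no mouse left out, 66 kept their size and side of the threshold. The number of genes that passed between the groups in cluster 1, 2 in the main comparison, was 1 with RLE size factors, 1 with at least 5 cells per mouse, 4 without doublets, 17 without cells sharing a barcode, 8 with every mouse thinned to 20 cells, 0 with the cells typed as PCs and 4 without cells with endothelial UMIs, and 21 to 89 with 1 mouse left out (89 without B6→B6 mouse 3). DESeq2 gave 3 and no filter 3. The interaction count, 0, was 1 with no filter, 1 in DESeq2 and 1 without shared barcodes, and 0 to 1 with 1 mouse left out (1 without HLA→B6 mouse 2). Genes counted as higher than cluster 0 were 125 with no filter, 25 with at least 5 cells, and 85 to 100 with 1 mouse left out. Genes counted as lower were 392 with no filter, 60 with a prior count of 5, and 131 to 198 with 1 mouse left out (198 without HLA→B6 mouse 1). Against PCs, the higher count was 1382 with no filter, 161 with at least 5 cells and 436 to 674 with 1 mouse left out, and the lower count 909, 58 and 385 to 759. The difference in the share of B cells ran from 4.12 to 14.2 points with 1 mouse left out. That of all cells ran from -0.00862 to 0.854, and that of switched cells from 5.68 to 15.6, or 17.1 with at least 5 classed cells (exact permutation p = 0.0357). The causes of these changes were not tested, apart from the larger or smaller sets of genes and mice that each setting makes. Lgals1 missed the threshold in 4 of 17 alternatives, and Apoe passed it in 9 of 17, Klf2 in 8 and Mcl1 in 4. With the tested controls pooled, depth limits genes under about 20 CPM in cluster 1. In each single control this limit is higher, and it is highest in the controls that were not tested.

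The replicate numbers 1 to 3 occur in both groups but name no shared litter or day. The numbers in the cell names of the HLA→B6 libraries differ from these replicate numbers. Samples with the same number had correlations of their deviations of 0.0423, 0.0440 and -0.0444. Those with unlike numbers ran from -0.117 to 0.122. With so few mice these values can neither show nor exclude a pairing. With the replicate number as a block, the difference in the share of B cells was 6.14 points and that of all cells 0.247 points. With at least 5 cells per mouse the block gave 0 genes, against 1 without it.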
